A study of Mus musculus with 7 samples.

Results

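Myc, a transcription factor gene within a long gene-poor stretch of mouse chromosome 15, was described by the accessible chromatin regions that lay nearest to it in mammary tumour cells. The regions came from pooled ATAC-seq peak lists, a Dll1+ list and a Dll1- list, and rows of both lists that overlapped or touched were merged into union regions. A union region was counted for Myc when its midpoint had a Myc transcription start site (TSS) as the nearest protein-coding TSS in the GENCODE annotation of GRCm38. Of 119215 union regions, 96 met this rule. Myc was chosen by its many regions called in the Dll1- list only, so the counts and ranks that follow describe the locus and none of them was tested.

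ATAC-seq uses a transposase that inserts sequencing adapters into open DNA, so that reads pile up over accessible promoters and enhancers. The tumours arose in mice carrying the MMTV-PyMT transgene, in which the mouse mammary tumour virus promoter drives the polyoma middle T oncoprotein, together with a Dll1-mCherry reporter for the Notch ligand gene Dll1. Both groups carried both alleles and were sorted as cells without the lineage surface proteins CD45, CD31 and Ter119. They differed in being mCherry+ (Dll1+) or mCherry- (Dll1-). The ages of the mice are not given in the sources used here. The 3 Dll1+ samples and 4 Dll1- samples came from 4 tumours, of which 3 gave both groups, and the deposited lists pool the samples of a group. Without values per tumour, no spread between tumours stands beside a difference between the lists.

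Myc binds DNA as a heterodimer with Max and drives genes of ribosome production, metabolism and cell division. In mammals the gene sits in a wide desert of other protein-coding genes, and enhancers placed far on either side of it are known to act on its promoter in a tissue-dependent way. The long non-coding RNA gene Pvt1 starts a short way downstream and shares part of this regulatory landscape, and both genes are often gained together in tumours.

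The Myc gene (ENSMUSG00000022346.15) spans chr15:61985391-61990374 of GRCm38 on the plus strand. The next protein-coding TSS upstream was that of A1bg, 1064 kb away, and the next downstream was that of Gsdmc, 1823 kb away. The stretch of DNA nearer to Myc than to any other protein-coding TSS ran over chr15:61453329-62898090, a length of 1.44 Mb, and held 66.4 union regions per Mb. This was a dense stretch for its length. Among the 297 protein-coding genes, Myc included, whose own stretch was at least 1 Mb long and held a region, the median density was 9.46 regions per Mb and 0 were denser than Myc. Genes with a shorter stretch could be denser, as Zfp516 and Ubash3b were, at 93.0 and 83.5 regions per Mb, while Tcf4 had 61.2 and Sox9 had 52.0.

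The outermost members were shared regions at −531 kb and 864 kb from the Myc TSS, where negative values lie upstream of the gene. The first region outside the upstream limit was a Dll1- only region 546 kb from Myc and 518 kb from the A1bg TSS, at the 21.5th percentile of fold enrichment in the Dll1- list. Outside the downstream limit, the first region was also Dll1- only, 916 kb from Myc and 908 kb from Gsdmc, at percentile 48.5. The percentile gives the rank of a region's strongest row among all rows of its own list by fold enrichment, with 100 the strongest. Fold enrichment is the peak caller's ratio of summit reads to local background, with a small constant added to both.

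Short stretches of reference sequence around single summits are printed first, as examples, and the counts below use all regions. Each covers 60 bases on either side of the strongest summit, 5′ to 3′ on the plus strand of GRCm38, and capitals mark a match to 1 of the 16 searched motifs. The first is the strongest region called in the Dll1- list only, at 397 kb and just past the end of Pvt1 (chr15:62382381-62382501). The second is the strongest region called in the Dll1+ list only, at −185 kb (chr15:61800308-61800428). The third is the strongest shared distal region, at −71.6 kb (chr15:61913607-61913727), and its capitals are a match to the forkhead (FOX) motif TGTTTAC.
Dll1- only, 397 kb: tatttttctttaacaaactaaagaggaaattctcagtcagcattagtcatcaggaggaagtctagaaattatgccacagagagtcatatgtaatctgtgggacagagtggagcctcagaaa
Dll1+ only, −185 kb: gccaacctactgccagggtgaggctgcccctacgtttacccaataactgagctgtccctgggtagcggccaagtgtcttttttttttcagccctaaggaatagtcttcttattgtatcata
Shared, −71.6 kb: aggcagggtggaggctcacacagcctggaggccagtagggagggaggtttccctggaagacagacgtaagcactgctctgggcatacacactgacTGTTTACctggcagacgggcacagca

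Of the 96 Myc regions, 57 were shared by both lists, 8 were called in the Dll1+ list only and 31 in the Dll1- list only. The shared regions made up 59.4% (Wilson 95% interval 49.4 to 68.7), against 66.4% of all union regions. The Dll1+ only regions made up 8.33% (4.28 to 15.6), against 9.01% over all union regions. The Dll1- only regions made up 32.3% (23.8 to 42.2), against 24.6% over all union regions. All 3 background shares lay inside these intervals, and nothing is read from the counts, since they are what the gene was chosen on. The intervals cover counting error only, the reads carry no molecular identifiers and regions are not replicates.

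Most Myc regions were distal, and 85 of the 96 lay more than 50 kb from the nearest Myc TSS. Of these 85, 51 were shared, 7 Dll1+ only (8.24%) and 27 Dll1- only (31.8%, 22.8 to 42.3). Over all 37686 union regions that lay beyond 50 kb from the nearest TSS, the shares were 61.8% shared, 11.5% Dll1+ only and 26.7% Dll1- only. Set against regions at a like distance, the Myc intervals for the Dll1+ only and Dll1- only shares held the background value.

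Myc had many regions in all, and few genes had more. Of 17389 protein-coding genes with a union region, 2 had more regions than Myc, Adgrl2 with 122 and Auts2 with 103, and Adgrl2 also had 31 Dll1- only regions; both were named after their values were seen. Among the 92 genes with 50 or more regions, 8 had a larger Dll1- only share than Myc, and the median share was 23.3%. Sox9, another developmental transcription factor gene flanked by a wide desert, had 65 regions, of which 34 were shared, 6 Dll1+ only and 25 Dll1- only (38.5%, 27.6 to 50.6). The 3 genes with 50 or more regions whose class shares came closest to those of Myc, by the Euclidean distance over the 3 percentages, were Zfp516, Tcf4 and Ubash3b, at 0.895, 1.40 and 2.18 percentage points.

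**Figure D1:**
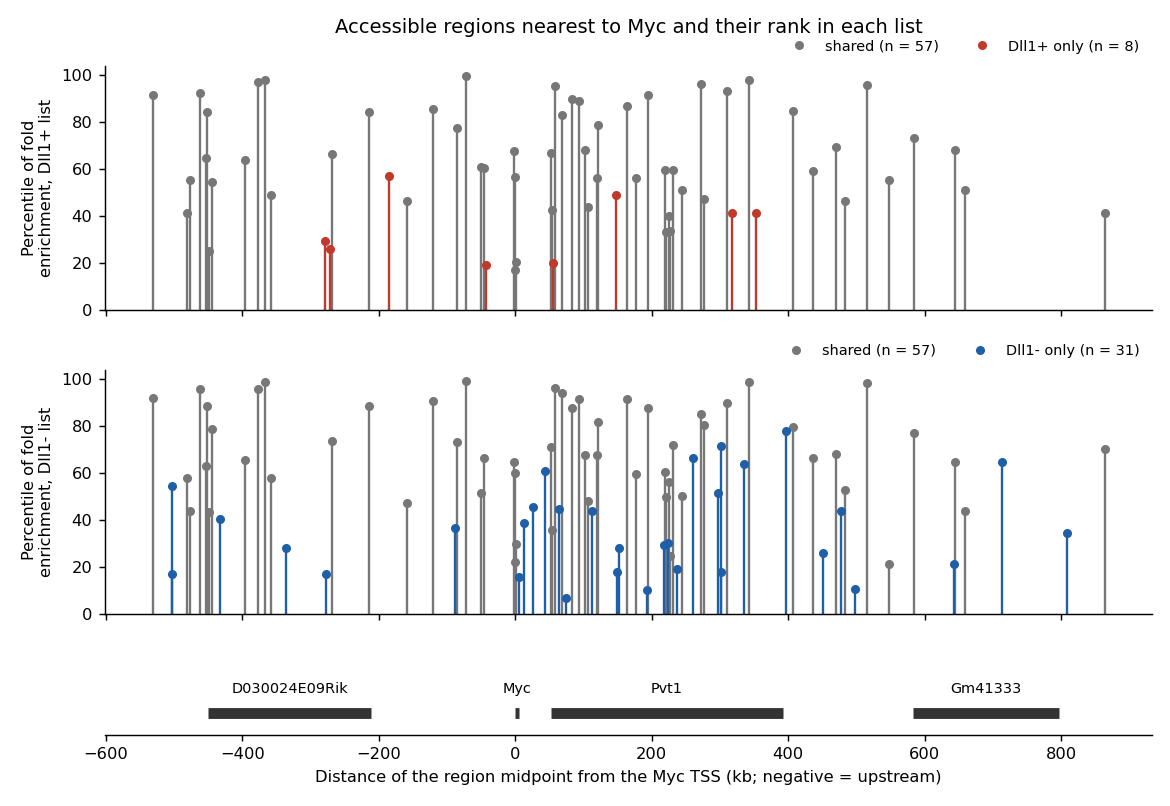
Each stem is 1 union region nearest to Myc, placed by the distance of its midpoint from the Myc TSS (kb, negative upstream) with its height the percentile of fold enrichment in the Dll1+ list (top) or the Dll1- list (middle); grey stems are the 57 shared regions, red the 8 Dll1+ only and blue the 31 Dll1- only, and the bars below mark Myc and 3 of the long non-coding genes. Of the 63 downstream regions 25 were Dll1- only, and of the 33 upstream regions 6 were, and the tallest stems in both lists were shared.

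More regions lay on the downstream side, which was also the longer stretch. Upstream of the TSS, 33 regions were found, of which 23 were shared, 4 Dll1+ only and 6 Dll1- only (18.2%, 8.61 to 34.4). Downstream, 63 regions were found, of which 34 were shared, 4 Dll1+ only and 25 Dll1- only (39.7%, 28.5 to 52.0). Over all union regions the share was 24.6%, and 26.7% beyond 50 kb. Nothing is read from these shares, since Myc was chosen on them. The split by side was made after the positions had been seen, the intervals of the sides overlapped, and the 2 shares were not tested against each other.

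Pvt1, a lincRNA gene at chr15:62037986-62378096 whose TSS lay 52.6 kb from that of Myc, overlapped 41 of the 63 downstream regions. Of these, 23 were shared, 4 were Dll1+ only and 14 were Dll1- only (34.1%, 21.6 to 49.5), so all 4 downstream Dll1+ only regions lay in Pvt1. Past the end of Pvt1, 17 regions were found, with 10 shared, 0 Dll1+ only (which allows a share of up to 18.4% by the Wilson interval) and 7 Dll1- only. In the 17 regions beyond Pvt1, the lincRNA gene Gm41333 overlapped 5, of which 3 were shared and 2 Dll1- only.

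Upstream, the lincRNA gene D030024E09Rik overlapped 13 regions, with 8 shared, 2 Dll1+ only and 3 Dll1- only. The lincRNA gene Gm49498 overlapped 2 regions and the processed pseudogene Gm18154 overlapped 1, all shared. The small RNA gene Gm27913, which lies at the start of Pvt1, overlapped 1 shared region. By the midpoint, 57 Myc regions lay in introns, 35 were intergenic and 4 were exonic, and all 4 exonic regions were shared. Of the intronic regions, 56.1% were shared, 10.5% Dll1+ only and 33.3% Dll1- only (22.5 to 46.3). Of the intergenic ones 21 of 35 were shared, with 5.71% Dll1+ only and 34.3% (20.8 to 50.8) Dll1- only. Over all union regions, at any position, 66.4% were shared, 9.01% Dll1+ only and 24.6% Dll1- only. Nothing is read from these counts.

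The classes were also counted by distance from the TSS. Within 2 kb of the nearest Myc TSS, all 4 regions were shared, beside 82.8% of all union regions at that distance. From 2 to 50 kb, 2 of 7 regions were shared, 1 was Dll1+ only and 4 were Dll1- only (57.1%, 25.0 to 84.2), against 27.1% of all union regions at that distance. All 4 lay downstream, at 6.07, 13.6, 26.6 and 43.2 kb, in the stretch between the promoter and the start of Pvt1. From 500 to 1000 kb, 7 of 12 regions were shared and 5 were Dll1- only (41.7%, 19.3 to 68.0), against 24.9% of all. In the bins between, the Dll1- only share ran from 25.0% to 33.3% beside 26.8% of all regions in each, and with 4 to 36 Myc regions a bin the intervals were wide.

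**Figure D2:**
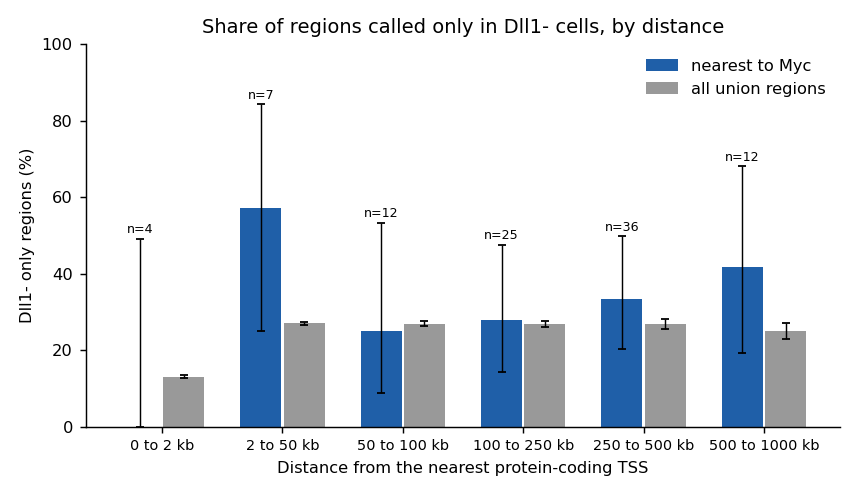
Bars give the percentage of regions called in the Dll1- list only, by distance from the nearest protein-coding TSS, for the regions nearest to Myc (blue, number of regions above each) and for all union regions (grey), with Wilson 95% intervals. The Myc share was 0% of 4 regions within 2 kb and 57.1% of 7 from 2 to 50 kb. Over all union regions in these bins it was 13.1% and 27.1%, and the Myc intervals were wide in every bin.

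The Myc promoter was accessible in both lists. The region over the TSS, chr15:61984888-61985856, had 199 summit reads among Dll1+ cells over a local background of 30.8, and 325 among Dll1- cells over 53.5. The fold enrichment came to 6.28 for Dll1+ (percentile 56.6) and 5.98 for Dll1- (percentile 60.1). The middling rank went with a high background: by −log10 p, which weighs the number of reads as well as the ratio, the same region stood at percentiles 87.2 and 88.5. The reads and backgrounds were recovered from the deposited fold and −log10 p of each row under a Poisson model that the values followed.

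The lists differed in depth, and read counts can be compared between them only after scaling. The lowest local background recovered at any row was 3.74 reads for Dll1+ and 7.20 for Dll1-, 1.93 times as many. This lowest value is taken as the genome-wide background of its list and was not measured away from peaks. Dividing the summit reads by this background gives a level, and the median shared region of the genome had a lower level in the Dll1- list, by −0.24 on the log2 scale. Level ratios below are Dll1- over Dll1+ with that genome-wide shift taken out, so that 1 is the median shared region, and their 95% intervals cover counting error only. On this scale the TSS region stood at 1.00 (0.838 to 1.20), so no difference was detectable at this depth.

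The other regions within 2 kb of a Myc TSS had similar level ratios but unlike ranks. At −1.84 kb, chr15:61983312-61983784 had 239 and 346 reads in the Dll1+ and Dll1- lists, with a level ratio of 0.888 (0.751 to 1.05). Between it and the TSS, the −0.916 kb region had 101 and 170 reads and a ratio of 1.03 (0.803 to 1.33). At 1.77 kb, inside the gene, the reads were 111 and 206 and the ratio was 1.14 (0.900 to 1.45). All 4 intervals around the promoter held 1. By fold, the −1.84 kb region stood at percentiles 67.7 (Dll1+) and 64.5 (Dll1-). The −0.916 kb region stood at 17.1 and 22.1, and the 1.77 kb region at 20.5 and 29.8.

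The start of Pvt1 was covered by a shared region in both lists, at 52.7 kb. It had 59 and 99 reads, fold enrichments of 7.61 and 7.60 at percentiles 66.9 and 71.3, and a level ratio of 1.03 (0.739 to 1.45). Next to it, the 53.3 kb region had 39 and 52 reads and a ratio of 0.818 (0.530 to 1.27).

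The strongest distal regions were shared. The −71.6 kb region, whose sequence is printed above, had 241 Dll1+ reads and 362 Dll1- reads, fold enrichments of 24.7 and 22.2, percentiles of 99.7 and 99.2, and a level ratio of 0.922 (0.781 to 1.09). It ranked above the Myc promoter in both lists. The −366 kb region (chr15:61618668-61619746) had the most reads of any member, 266 and 436, with percentiles of 97.7 and 98.6 and a level ratio of 1.01 (0.862 to 1.18). Inside Pvt1, the 343 kb region (chr15:62328227-62328924) had 147 and 325 reads, percentiles of 97.7 and 98.6, and a level ratio of 1.36 (1.11 to 1.66). Past Pvt1, the 516 kb region (chr15:62500836-62501478) had 100 and 246 reads, percentiles of 95.6 and 98.4, and a level ratio of 1.51 (1.19 to 1.92). The intervals of the 343 kb and 516 kb regions lay above 1 although their ranks were within a few points. The −377 kb region, at percentiles 97.2 and 95.8, had a level ratio of 0.802 (0.622 to 1.04). Not all of the strongest ranked alike: the 273 kb region stood at percentile 96.2 in the Dll1+ list and 85.3 in the other. Within the Dll1+ list, 11 of the 57 shared regions stood at or above the 90th percentile (19.3%, against 16.6% of all shared regions), and 12 did so in the Dll1- list (21.1%, against 18.6%).

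Across the 57 shared regions the median percentile was 64.5 for Dll1+ and 68.1 for Dll1-, beside 67.3 and 70.7 for all shared union regions. The percentile was higher in the Dll1- list at 37 of the regions (64.9%, beside 59.0% of all shared regions) and higher in the Dll1+ list at 20. The median difference, Dll1+ minus Dll1-, was −2.73 points, beside −1.67 over all shared regions. The lists ranked these regions closely: 44 of 57 (77.2%) fell within 10 points of each other, against 59.8% of all shared regions. The median relative log2 level ratio at Myc was 0.05, with quartiles of −0.13 and 0.26.

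**Figure D3:**
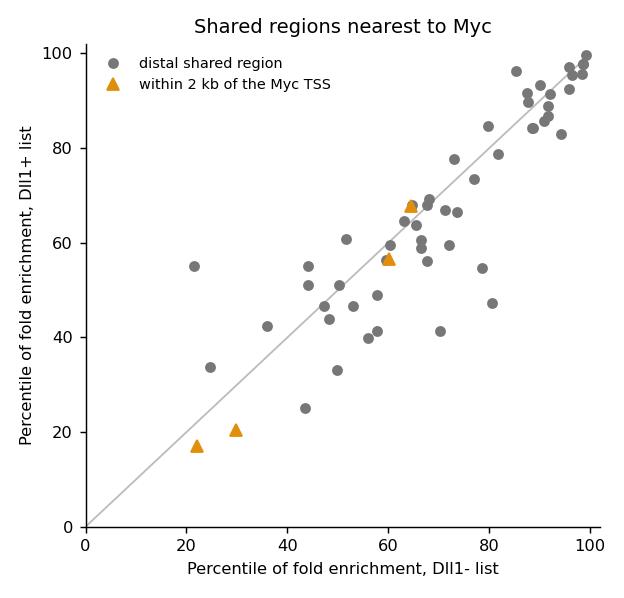
Each point is 1 of the 57 shared regions nearest to Myc, with its percentile of fold enrichment in the Dll1- list on the horizontal axis and in the Dll1+ list on the vertical axis; orange triangles are the 4 regions within 2 kb of a Myc TSS and the line marks equal rank. Most points lay close to the line, 37 below it and 20 above it, and a few shared regions with intermediate rank lay far from it.

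A few shared regions departed from this. The region ranked most towards Dll1- lay in Pvt1 at 276 kb (chr15:62261508-62262078), with 33 Dll1+ reads and 116 Dll1- reads. Its percentile was 47.2 among Dll1+ rows and 80.5 among Dll1- rows, and its level ratio was 2.16 (1.45 to 3.28). Also in Pvt1, the 68.4 kb region (chr15:62053440-62054141) had 74 and 248 reads and a ratio of 2.06 (1.58 to 2.70), although it ranked high in both lists at percentiles 82.9 and 94.2. The last member, at 864 kb, had 22 and 60 reads and a ratio of 1.67 (1.01 to 2.87). These are the members picked for their differences, so the intervals are given as a description.

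The region ranked most towards Dll1+ lay at 548 kb (chr15:62533303-62533657), with 28 reads in the Dll1+ list and 25 in the deeper Dll1- list. Its percentiles were 55.2 and 21.5, and its level ratio was 0.548 (0.306 to 0.975). In Pvt1, the 273 kb region, with 111 and 133 reads, had a ratio of 0.735 (0.567 to 0.955), and the 310 kb region, with 108 and 119 reads, had 0.676 (0.517 to 0.886). Regions that leaned to opposite lists could thus lie close together, as at 273 and 276 kb. In all, the interval of the level ratio lay above 1 at 11 of the 57 shared regions (19.3%, beside 15.8% of all shared regions), below 1 at 3 (5.26%, beside 16.4%), and held 1 at the others.

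Around the summits of the regions that departed most, the 60 bases printed on either side held no match to a searched motif. The 276 kb region did hold an AP-1 match, TGACTCA, 74 bases before its summit, just outside the printed stretch and within the 100 bp searched for the counts below.
Shared, towards Dll1-, 276 kb (chr15:62261657-62261777): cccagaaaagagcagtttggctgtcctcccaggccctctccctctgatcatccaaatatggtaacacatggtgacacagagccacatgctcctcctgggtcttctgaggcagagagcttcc
Shared, towards Dll1+, 548 kb (chr15:62533370-62533490): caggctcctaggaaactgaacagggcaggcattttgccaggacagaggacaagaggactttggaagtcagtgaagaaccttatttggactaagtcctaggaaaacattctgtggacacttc

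Regions called in 1 list only mostly ranked below the median of their list. The 31 Dll1- only regions had a median percentile of 34.7 in the Dll1- list, beside 32.6 for all Dll1- only regions of the genome. Of them, 8 stood above the list median (25.8%, against 22.3% of all such regions) and 0 reached the 90th percentile. Their summits held 18 to 131 reads with a median of 34, while the shared regions held 25 to 436 reads with a median of 119 in the same list. They were also narrower, with a median width of 339 bp against 626 bp for the shared regions.

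By fold, the strongest Dll1- only region was the 397 kb region (chr15:62382272-62382597), printed above. It had 72 reads (exact Poisson 95% interval 56.3 to 90.7) over the genome-wide background of 7.20, a fold of 8.90 and a percentile of 77.8. Next came the regions at 302 kb, with 62 reads and a fold of 7.68, and at 260.1 kb, with 55 reads and a fold of 6.83. The regions at 713 kb and 336 kb followed with folds of 6.59 and 6.46, and the 43.2 kb region with 6.10. All 6 lay downstream of Myc. The strongest Dll1- only region upstream, at −503 kb, had 43 reads and a fold of 5.37.

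The Dll1- only region with the most reads, 131 at 224 kb (chr15:62209277-62209636), had a local background of 35.1 and so a fold of 3.65 only, at percentile 30.1. By −log10 p, at 35.2, it came after the 397 kb region at 46.2 and the 302 kb region at 36.4, ahead of the others. It belonged to the densest stretch of the locus, chr15:62202779-62223056 inside Pvt1, where 8 regions lay within a window of 20 kb, 5 of them shared and 3 Dll1- only. The local background of its members reached 21.0 Dll1+ reads and 38.1 Dll1- reads, several times the genome-wide values. Over the whole locus the median gap between neighbours was 7.40 kb, with closer groups also at the promoter and at the start of Pvt1 and a longest gap of 95.2 kb, from 714 to 809 kb. Only 4 of the 31 Dll1- only regions lay within 2 kb of a shared region (12.9%, against 27.2% of all Dll1- only regions), and 17 lay within 10 kb (54.8%, against 66.1%).

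**Figure D4:**
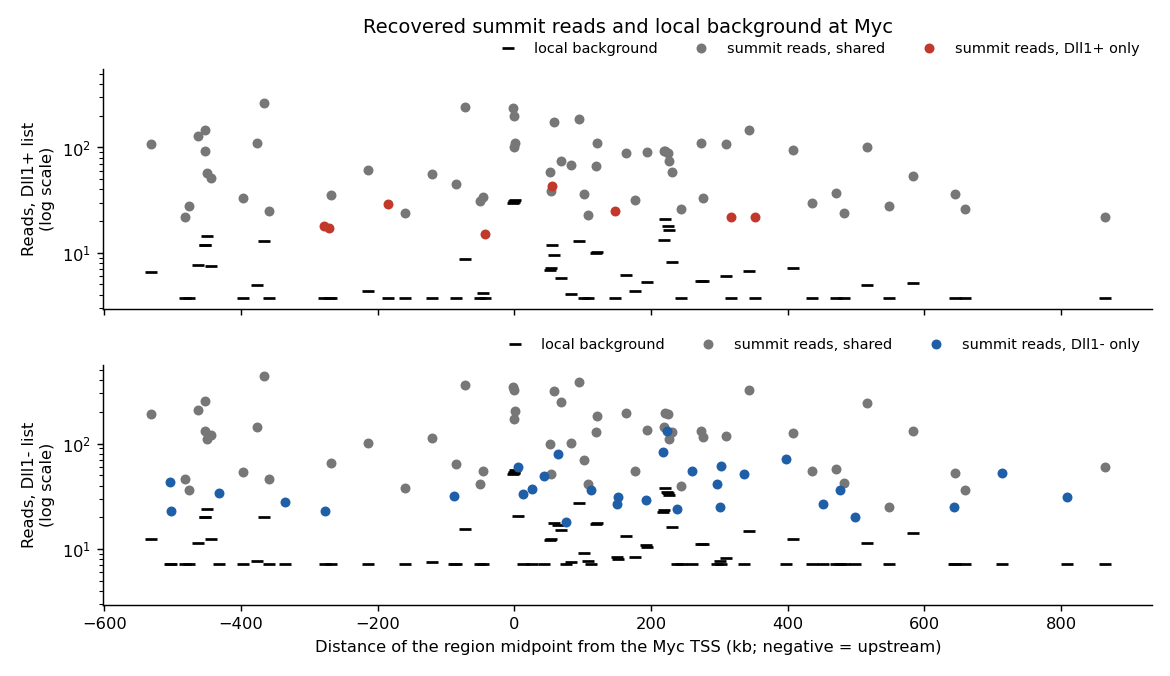
Points give the recovered reads at the strongest summit of each region nearest to Myc and dashes its local background, on a log axis, against the distance from the Myc TSS (kb), for the Dll1+ list (top) and the Dll1- list (bottom); grey points are shared regions, red Dll1+ only and blue Dll1- only. The background rose at the promoter, to 30.8 and 53.5 reads at the TSS region, and at the dense stretch in Pvt1, and most regions of 1 list only lay at the genome-wide background.

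The 8 Dll1+ only regions also ranked low, with a median percentile of 35.4 in the Dll1+ list beside 29.4 for all Dll1+ only regions. The strongest, at −185 kb (chr15:61800002-61800556), had 29 reads (19.4 to 41.6), a fold of 6.33 and a percentile of 57.2, and it was the only member of the class above the list median. The remaining 7 had 15 to 43 reads. They lay at −278, −271 and −43.2 kb upstream and at 55.9, 148, 317 and 352 kb downstream. With the strongest, they were 4 of the 33 upstream regions (12.1%) and 4 of the 63 downstream regions (6.35%).

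Because the Dll1- background was 1.93 times as high, each Dll1- only region was also scaled to the Dll1+ background by dividing its reads and local background by this ratio. The scaled −log10 p ran from 2.28 to 24.5 with a median of 7.05. All 31 passed 2.00, the weakest value in the Dll1+ list, but 14 reached 7.85, the 10th percentile of Dll1+ regions, and 0 reached 26.7, their median. The 397 kb region would have had 37.4 reads and gave the highest scaled value. Background is only 1 measure of depth: at the median shared region the summit reads differed by 1.63 times, and with reads divided by that ratio 31 passed the weakest value, 19 reached the 10th percentile and 1 reached the median. A region without a row in the Dll1+ list has no read count there, so the part of depth in the Dll1- only calls was not tested.

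**Figure D5:**
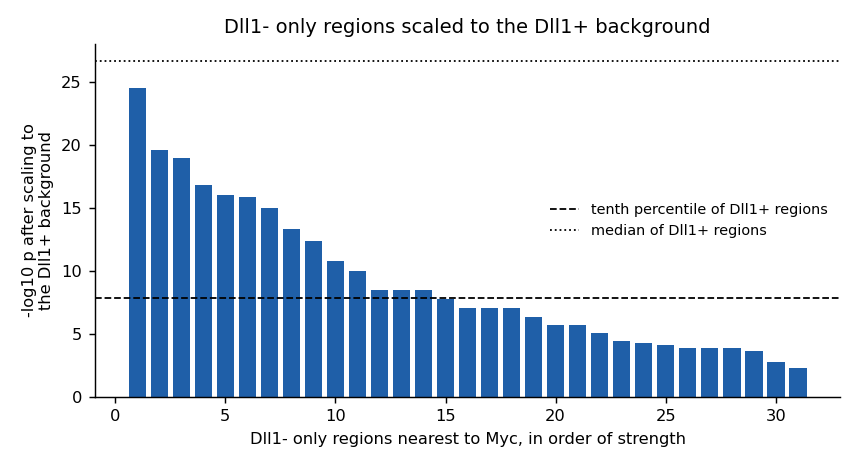
Each bar is 1 of the 31 Dll1- only regions nearest to Myc, in order, with its height the −log10 p after its reads and background were divided by 1.93, the ratio of the lists' genome-wide backgrounds; the dashed line is the 10th percentile (7.85) and the dotted line the median (26.7) of the Dll1+ regions' own values. 14 bars reached the dashed line and 0 the dotted line.

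Base composition was lowest in GC at the Dll1+ only regions. The median GC content of the windows was 49.3% for shared, 42.8% for Dll1+ only and 47.3% for Dll1- only regions, beside 50.7%, 46.8% and 49.3% over all regions of each class. Repeat-masked sequence made up a median of 3.48% of the Dll1- only windows, 5.97% of the Dll1+ only and 0% of the shared windows, beside 2.99%, 8.96% and 0% over all regions of each class. Of the 31 Dll1- only windows, 1 was mostly masked (3.23%, beside 3.30% of all).

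The AP-1 motif TGACTCA, bound by dimers of Fos and Jun proteins, was the most frequent of the searched motifs at Myc. With both strands searched up to 100 bp from the strongest summit, it was found in 8 of 31 Dll1- only regions (25.8%), beside 30.4% of all Dll1- only regions. It was found in 12 of 57 shared regions (21.1%), beside 15.4% of all shared regions, and in 1 of 8 Dll1+ only regions, beside 4.40% of all Dll1+ only regions. How the Dll1- only share stood to the genome depended on the window: within 50 bp of the summit 7 of 31 regions held a match (22.6%, beside 23.6% of all), while over the whole region 14 did (45.2%, beside 33.8% of all). Over the whole region a match was found in 20 shared regions (35.1%, beside 22.2%) and in 1 Dll1+ only region (beside 6.31%). The whole Myc regions were also wider than others of their class, with medians of 339 bp against 292 bp for Dll1- only and 626 bp against 568 bp for shared regions. A match is a run of letters and not a measured binding site.

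The AP-1 matches of the Dll1- only regions are shown with 11 bases on either side, because this was the searched motif found most often in them; each line reads 5′ to 3′ on the plus strand, capitals mark the match, and TGAGTCA is TGACTCA read from the other strand.
−88.5 kb (chr15:61896866-61896894): agacagacttaTGACTCAgagaggaaact
6.07 kb (chr15:61991417-61991445): cttgttttacaTGAGTCAttattttagaa
43.2 kb (chr15:62028596-62028624): caaagtggttgTGACTCAcaggttgagaa
224 kb (chr15:62209477-62209505): tactggttaagTGAGTCAttcacaaagcc
238 kb (chr15:62222894-62222922): cagtgtgctggTGAGTCAgatctgttggg
260.1 kb (chr15:62245551-62245579): ctaaaccactaTGACTCAttgggtaggct
336 kb (chr15:62321164-62321192): attaagaagaaTGAGTCAggatggtggct
451 kb (chr15:62436848-62436876): gctcctccttcTGAGTCAatctcagttca

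Of these 8 matches, 7 lay within 50 bp of the summit and that of the 451 kb region lay 94.0 bp from it. The strongest Dll1- only region, at 397 kb, had none. Among the shared regions, the one at 94.2 kb in Pvt1 held 3 matches within its window, of which the first lay 3 bases from the summit; it had 185 and 389 reads and a level ratio of 1.29 (1.08 to 1.55). The match of the single Dll1+ only region, at 352 kb, is printed with the first of the shared region.
Shared, 94.2 kb (chr15:62079518-62079546): ccttctagaagTGACTCAaaagcttttct
Dll1+ only, 352 kb (chr15:62337815-62337843): gtctcatttgaTGAGTCAgaggatagatg

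TTGCNNAA, for C/EBP factors, was nearly as frequent at Myc as AP-1, which was found in 21 of the 96 regions (21.9%, against 18.1% of all union regions): it was found in 17 (17.7%, against 11.4%), of which 12 were shared. No spelled motif contained another. The remaining motifs were found in 5 regions or fewer. TGTGGGAA, for the Notch effector RBPJ, was found in 5 (5.21%, against 1.60%), of which 4 were shared, 1 was Dll1+ only and 0 were Dll1- only. NF-kB, searched by its 10-letter consensus with ambiguous letters, was found in 5 (5.21%, against 3.02%), of which 3 were shared and 2 Dll1- only. The TEAD motif ACATTCC and the RUNX motif TGTGGTT were found in 5 regions each (5.21%), beside 5.07% and 5.06% of all. These counts also moved with the window: among shared regions, from 50 bp to the whole region, RBPJ matches ran from 2 to 8, NF-kB from 0 to 7 and C/EBP from 7 to 24.

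The SOX motif CCATTGT was found in 4 regions (4.17%, against 4.23%). The TCF/LEF motif CTTTGAT, the FOX motif TGTTTAC and the GATA motif AGATAAG were found in 3 regions each (3.12%, against 2.25%, 3.73% and 1.24%). The E-box CACGTG, which Myc and Max themselves bind, was found in 1 (1.04%, against 3.98%). This count also moved with the window. Over the whole region the E-box was found in 6 shared, 2 Dll1- only and 0 Dll1+ only regions, with no genome-wide count to set beside them. The STAT motif TTCCNGGAA, the GRHL motif AACCNGGTT, the ETS motif CCGGAAGT, the CTCF motif and the oestrogen receptor element were found in 0 windows, beside 1.18%, 0.195%, 1.07%, 0.664% and 0.0361% of all union regions.

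The partners and relatives of Myc were mostly covered at their promoters. Over all protein-coding genes, 57.6% had a TSS covered by a row of the Dll1+ list and 59.7% by a row of the Dll1- list. Of 12 genes of the Myc network, 11 had a TSS covered by a Dll1+ row and 12 had one covered by a Dll1- row. Max, the obligate partner, stood at percentiles 96.4 and 96.5, and Mxd4, a Max partner that opposes Myc, at 93.0 and 98.0. Mnt, another opponent, stood at 58.2 and 67.9. Of the paralogues, Mycl was covered in both lists, at 81.1 and 77.6, while Mycn was covered in the Dll1- list only, at percentile 33.3. The 105 regions nearest to these 12 genes were 70.5% shared, 10.5% Dll1+ only and 19.0% Dll1- only (12.7 to 27.6).

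Of 14 genes known as activated by Myc, 13 had a TSS covered by a Dll1+ row and 14 had one covered by a Dll1- row. The nucleolar protein genes Ncl, at percentiles 96.5 and 95.8, and Npm1, at 95.3 and 97.4, the polyamine enzyme gene Odc1, at 92.5 and 91.3, and the pyrimidine synthesis gene Cad, at 98.2 and 99.0, ranked high in both lists. Lower ranks were seen at Ldha, a glycolytic enzyme gene, at 65.7 and 82.9, at the cell cycle kinase gene Cdk4, at 76.8 and 69.2, and at the telomerase gene Tert, at 46.6 and 60.9. Ccnd2, which encodes cyclin D2, was covered in the Dll1- list only, at percentile 27.7, and 5 of its 7 regions were Dll1- only. The 57 regions of the 14 genes were 73.7% shared, 5.26% Dll1+ only and 21.1% Dll1- only (12.5 to 33.3). Both intervals held the 24.6% of all union regions, and the regions were not matched on distance.

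The epithelial label of the sorted cells was checked on marker promoters, set beside the same genome-wide shares. All 5 luminal markers (Epcam, Krt8, Krt18, Cdh1 and Elf5) had a covered TSS in both lists, and of 4 basal markers Acta2 alone did. Of the defining genes of the sorted-out cells, 0 of 5 leukocyte markers had a covered TSS in either list, and Kdr was the 1 of 3 endothelial markers that did. Regions did lie nearest to these genes, 22 for leukocyte markers (63.6% shared) and 45 for endothelial markers (57.8% shared). Over all union regions 66.4% were shared. Of 3 markers of fibroblasts, for which no sorting antibody is named, Pdgfra was covered, at percentiles 67.4 (Dll1+) and 78.6 (Dll1-). Of the regions nearest to these genes, the Dll1- only share was 12.5% (6.72 to 22.1) for luminal, 31.2% (19.9 to 45.3) for basal, 27.3% (13.2 to 48.2) for leukocyte, 31.1% (19.5 to 45.7) for endothelial markers, and 10 of 25 regions (23.4 to 59.3%) for fibroblast markers. Over all union regions the share was 24.6%, above the luminal interval and inside the others. These regions were not matched on distance, and the share over all union regions was 13.1% within 2 kb and 27.1% from 2 to 50 kb. The part of other cell types in the Myc regions was not tested.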

How the data were processed

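ATAC-seq was measured in 3 Dll1+ and 4 Dll1- samples sorted from 4 tumours. Per the study's methods, the replicates of a group went through the ENCODE ATAC-seq pipeline together and the authors deposited 1 optimal peak list per group, so no per-sample value was used here; their later counting with salmon and test with DESeq2 was not analysed here. The aligner, peak caller and thresholds are not given in the sources used here. The deposited fold enrichment of each row followed a ratio of summit reads to local background, with 1 added to both. Alongside it the authors deposited a −log10 p-value per summit. Their −log10 q-value was not used, and the deposited score was not used further. GRCm38 (mm10) is named in the submitters' processing notes, and 0 rows ran past a chromosome end.

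The Dll1+ list held 132872 rows and the Dll1- list 148923. Rows that overlapped or touched were merged, and midpoints were assigned to the nearest protein-coding TSS (GENCODE M21). Summit reads were recovered from fold and −log10 p under a Poisson model with a tolerance of 0.01 in −log10 p, which failed for 0 Dll1+ rows and 1 Dll1- row; the recovery was tested on simulated data. Median summit reads per row were 43 and 61. Level ratios carry exact binomial intervals and read counts exact Poisson intervals, all for counting error only. Reference sequence came from the RefSeq GRCm38.p6 genome. The named genes were Myc, its neighbours, the non-coding genes its regions overlap, Sox9, the 3 genes most like it in class shares, the Myc network and target lists, and cell type markers, of which the erythroid ones are not reported here. Members, lists and settings were chosen with earlier results of these data known. Alternatives were other overlap, threshold, depth, distance and TSS rules, other ranks and other motif windows. Tools were Python 3.11.15, numpy 2.4.6, pandas 2.3.3, scipy 1.17.1 and matplotlib 3.10.9.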

Additional observations from a re-analysis of the deposited data

How the results depend on the processing

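No test was made, so the alternatives move counts and values only; no value changed sign, 32 of 46 values for the main counts and ranks stayed within their limits of change, and 14 did not. The 31 Dll1- only regions became 14 with rows at or above the median fold of their own list, 8 where a region of 1 list needed such a row, 4 within 50 kb of the TSS and, with both lists kept from the 10th percentile of Dll1+ regions, 14 when scaled by background and 19 when reads were scaled by the median shared region, alternatives chosen after seeing the data. The 8 Dll1+ only regions became 14 with an overlap of 50% of both regions, 4 with the stronger rows, 1 where a region of 1 list needed a stronger row and 1 within 50 kb. The 57 shared regions became 6 within 50 kb. Ranked among regions in place of rows, the shared regions had median percentiles of 52.4 (Dll1+) and 59.5 (Dll1-), the Dll1+ only regions 21.9 and the Dll1- only regions 24.0. With the whole region searched for AP-1, 20 shared and 14 Dll1- only regions had a match, and the Dll1- only share then lay above that of all such regions (45.2% against 33.8%) in place of below it. Of the other values, among them the counts of the rarer motifs, 31 moved and 59 did not. Ranking by −log10 p gave a median rank difference of −3.13 over the shared regions; its use for the strength of single regions was added after seeing the data. No paired analysis was possible because the deposited lists pool the tumours of each group, so pairing by tumour could not be made. The depth of the Dll1+ list, with a genome-wide background of 3.74 reads, limits what its absence of a row can show.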
